A study of Mus musculus with 22 samples.

Results

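The genes followed here are 10 genes of the liver X receptor (LXR) pathway, namely the receptors Nr1h2 and Nr1h3 and their targets Abca1, Abcg1, Mylip, Srebf1, Scd1, Scd2, Lpcat3 and Pltp. They were taken by name as LXR receptors and LXR target genes, and they are 10 of the 35596 genes that the deposited libraries quantify. Of the 10, 9 passed the filter on low counts and were tested among 12415 genes in all. Scd1 did not pass it.

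LXRs are nuclear receptors that bind oxidised cholesterol derivatives and, with a retinoid X receptor as partner, switch on genes that move cholesterol out of the cell. A macrophage that takes up a dying cell receives that cell's membranes and so a load of cholesterol, which the transporters ABCA1 and ABCG1 pass to lipoprotein particles outside. Apolipoprotein E, the product of the LXR target Apoe, is a main acceptor of that cholesterol in nervous tissue, including the retina.

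The libraries are bulk RNA-seq of microglia, the resident macrophages of nervous tissue, from retinas of 12-week-old mice. The 4 groups were Apoe-/- phagocytic cells (n = 6), Apoe-/- non-phagocytic cells (n = 6), wild-type (C57BL/6) phagocytic cells (n = 5) and wild-type non-phagocytic cells (n = 5). All mice, of both genotypes, had received apoptotic neurons in the vitreous, per the file header 24 hours earlier, so no group comes from an uninjected eye. CD11b+ Ly6c- Fcrls+ cells were sorted, and the phagocytic ones are those in which Alexa488 was detected. Each library comes from a pool of 5 to 6 retinas grouped by sex and genotype, with 100 to 500 phagocytic cells collected, and p-values measure the spread between such pools.

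Libraries held 1131045 to 3643499 reads assigned to genes, of which 12 satellite-repeat genes took 9.14% to 51.7%. Apoe itself was at 7.02 to 34.9 CPM (read counts scaled to a common library size with edgeR's TMM method) in the 12 Apoe-/- libraries and at 869 to 5145 CPM in the 10 wild-type libraries. Summed over 10 microglia markers, levels ran between 5118 and 20600 CPM, with no marker at 0 in any group mean. Summed over 12 markers of border macrophages, the macrophages of vessels and meninges, they ran from 464 to 1130 CPM in Apoe-/- phagocytic cells and from 214 to 354 CPM in Apoe-/- non-phagocytic cells, and from 596 to 1116 CPM in wild-type phagocytic cells and from 284 to 407 CPM in the non-phagocytic cells of wild type. Only 1 of these 12, Cd209f, was at 0 in all wild-type libraries. Much of the sum was 1 gene, Stab1. Of the mean sum it held 522.6 of 760.5 CPM in Apoe-/- phagocytic and 230 of 288 CPM in Apoe-/- non-phagocytic cells. In wild type it held 390 of 852 CPM in phagocytic and 237 of 324 CPM in non-phagocytic cells. Ddx3y and Eif2s3y, genes of the Y chromosome, together had 0 to 4 reads in 8 libraries, which are numbers 4, 5 and 6 of Apoe-/- and number 5 of wild type in both sorts (libraries of 1 genotype with the same number are called a pool here; the labels do not say that they share animals). They had 52 to 255 reads in the other 14. The labels say that pools were made by sex but do not give the sex of each, and any other difference between those pools cannot be told apart from it.

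Per transcript length, Lpcat3 and Nr1h2 were the highest of the 10 in wild type, and the exporters stood among the highest only in Apoe-/- phagocytic cells. In TPM, the authors' abundance per transcript length, Lpcat3 stood highest in Apoe-/- phagocytic cells with 51.5 ± 24.0 TPM (mean ± SD, n = 6), followed by Abcg1 with 32.6 ± 18.7 TPM, Nr1h2 with 28.6 ± 12.2 TPM, Mylip with 24.6 ± 7.59 TPM and Abca1 with 22.4 ± 11.8 TPM. In wild-type non-phagocytic cells, Lpcat3 averaged 63.2 ± 46.7 TPM, Nr1h2 42.1 ± 12.2 TPM and Mylip 33.1 ± 16.9 TPM (SD, n = 5), whereas Abcg1 averaged 10.1 ± 6.02 TPM and Abca1 3.77 ± 1.36 TPM. Nr1h3 averaged 1.50 to 8.04 TPM over the groups and Scd1 at most 0.682 TPM. In Apoe-/- phagocytic cells, neighbours in the order given differed by less than the larger of their SDs. TPM values are relative to a total that includes the satellite-repeat genes.

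**Figure D1:**
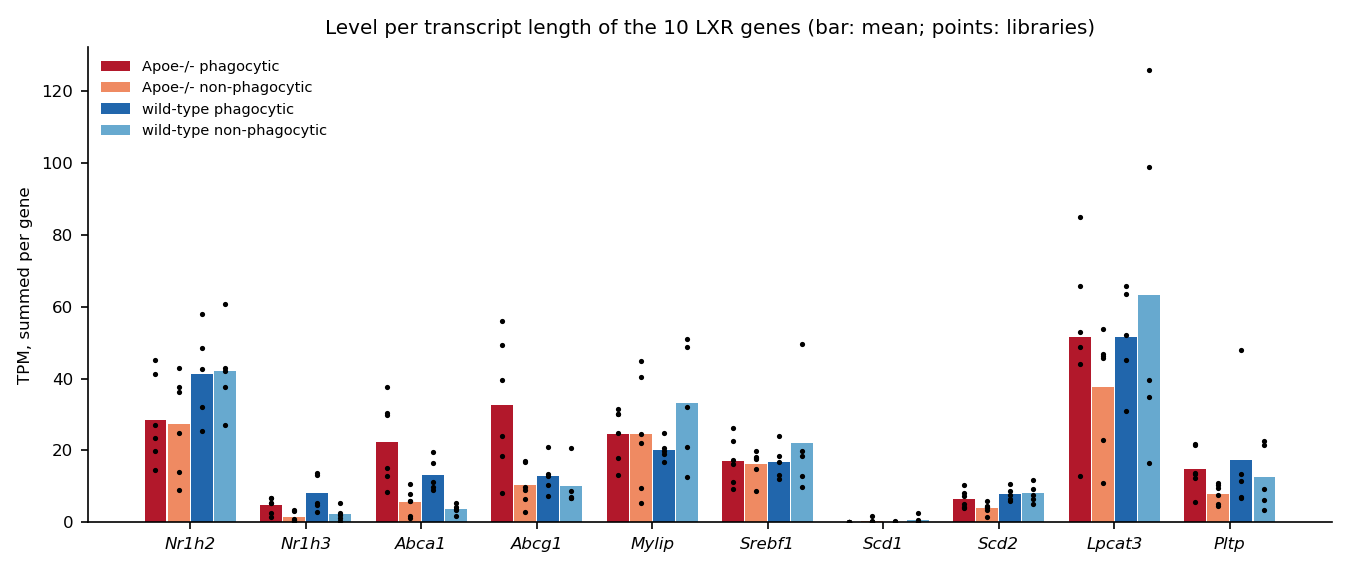
TPM summed per gene for the 10 LXR genes (bars: group mean, points: single libraries, n = 6 for Apoe-/- and 5 for wild type), with the 4 groups side by side. Lpcat3 and Nr1h2 stood high in every group, Scd1 was near 0, and Abca1 and Abcg1 stood highest in Apoe-/- phagocytic cells, at 22.4 and 32.6 TPM.

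Phagocytic cells had higher levels of the sterol exporters, whereas the receptors, the ligase Mylip and the lipid-synthesis and phospholipid targets did not pass the main test by edgeR. In Apoe-/- mice, 2 of the 9 tested genes, Abca1 and Abcg1, were called higher in phagocytic cells (edgeR quasi-likelihood test, Benjamini-Hochberg adjusted p under 0.05), against 0.467% of all genes called in either direction. The median log2 fold change of the 9 was 0.63, against -0.02 over all tested genes. In wild-type mice 0 of the 9 were called, against 0.209% of all genes, and their median was 0.35, against -0.01 over all genes. In that comparison, 2 of the 9 had an unadjusted p under 0.05, against 961 of 12415 genes, and DESeq2 called 1, against 100. With the library number as a replicate block, edgeR called 2 in wild type, Abca1 and Abcg1, against 135 of 12415 genes. The labels do not say that libraries of the same number share animals. With the effect averaged over both genotypes, 2 of the 9 were called, again Abca1 and Abcg1, against 2.36% of all genes, and the median was 0.43. For that average, 5 of the 9 had an unadjusted p under 0.05, against 1799 of 12415 genes. DESeq2 called 3, adding Nr1h3, against 513 of all genes. The replicate block called 4, with Nr1h3 and Lpcat3, against 644 of all genes. Of the 9 log2 fold changes, 8 were positive in each of these comparisons, against 47.7% to 49.3% of all genes. These counts include estimates within 1 SE of 0, which carry no direction. They were Mylip in Apoe-/-, Nr1h2, Srebf1, Scd2 and Pltp in wild type, and Nr1h2 in the average.

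**Figure D2:**
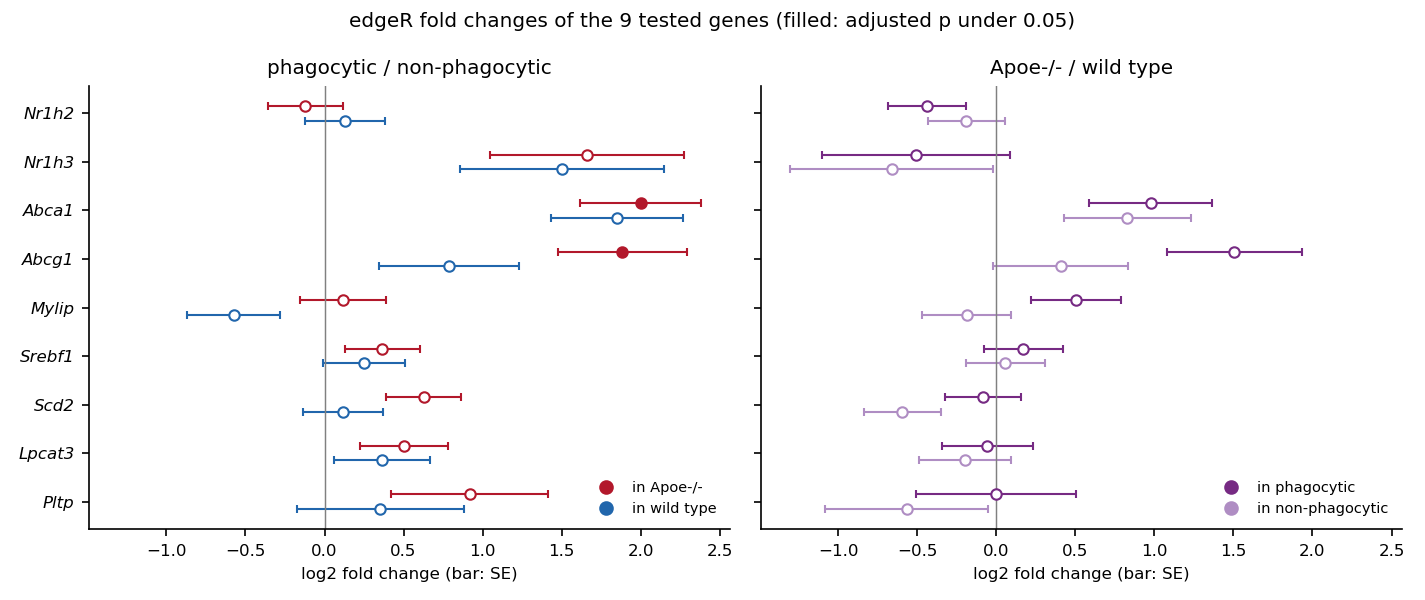
Log2 fold changes (edgeR estimate, bar: SE) of the 9 tested genes for phagocytic over non-phagocytic cells (left) and Apoe-/- over wild type (right), with filled points where the adjusted p is under 0.05. Abca1 and Abcg1 in Apoe-/- are the only filled points, at 2.00 and 1.88, and Abca1 in wild type stands at 1.85 with an adjusted p of 0.0568 by edgeR.

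Both LXR receptors were present. Nr1h2 (LXR beta, the broadly expressed form; chr7:44549616-44553951, minus strand, mm10) had a lowest, median and highest value of 31.7, 43.3 and 49.3 CPM in Apoe-/- phagocytic cells and of 29.4, 48.7 and 56.8 CPM in Apoe-/- non-phagocytic cells. In wild type it had 26.2, 67.9, 65.2, 54.8 and 65.7 CPM in phagocytic cells and 48.6, 57.2, 30.9, 53.1 and 65.9 CPM in non-phagocytic cells. All 4 groups overlapped, and the log2 fold change averaged over genotypes was 0.00 ± 0.18 (SE; edgeR quasi-likelihood, Benjamini-Hochberg adjusted p = 0.994), with a 95% interval (normal approximation) from -0.34 to 0.35. Nr1h2 lies on the same chromosome as Apoe, 24.9 Mb away, and its difference between Apoe-/- and wild type was -0.44 ± 0.25 in phagocytic cells (edgeR, adjusted p = 0.798) and -0.19 ± 0.25 in non-phagocytic cells (edgeR, adjusted p = 0.999).

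Nr1h3 (LXR alpha, the form abundant in macrophages and liver; chr2:91184061-91202834, minus strand, mm10) was scarce, with 345 reads over all 22 libraries. Its lowest, median and highest values were 4.18, 8.72 and 13.5 CPM in Apoe-/- phagocytic cells and 0.840, 1.46 and 6.41 CPM in Apoe-/- non-phagocytic cells. Wild-type phagocytic cells had 16.0, 8.04, 9.43, 24.8 and 5.33 CPM, and wild-type non-phagocytic cells 2.82, 2.24, 0.373, 11.9 and 5.20 CPM. Phagocytic libraries were mostly higher, with overlap in both genotypes. The log2 fold change was 1.66 ± 0.61 in Apoe-/- (edgeR, adjusted p = 0.314), 1.50 ± 0.65 in wild type (edgeR, adjusted p = 0.573) and 1.58 ± 0.44 averaged over genotypes, where the adjusted p was 0.0567 by edgeR and 0.0135 by DESeq2. Without wild-type non-phagocytic library 4, which held 22 reads of the gene, the averaged value was 1.96 (edgeR, adjusted p = 0.0128), and without Apoe-/- non-phagocytic library 6 it was 1.82 (edgeR, adjusted p = 0.0329). With the library number as a replicate block it was 1.83 and was called by edgeR. In all, 4 of 14 alternatives called the averaged value. Of the 22 analyses without 1 library, 2 called it, with adjusted p up to 0.13 by edgeR.

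Abca1 encodes the transporter that loads cholesterol and phospholipid onto lipid-poor apolipoproteins, and it lies at chr4:53030787-53159895 on the minus strand (mm10). It had a lowest, median and highest value of 147, 242 and 478 CPM in Apoe-/- phagocytic cells, against 20.7, 76.4 and 116 CPM in Apoe-/- non-phagocytic cells. In wild type it had 123, 93.0, 106, 185 and 217 CPM in phagocytic cells and 24.7, 29.9, 44.7, 46.6 and 53.7 CPM in non-phagocytic cells. Every phagocytic library stood above every non-phagocytic one of its genotype. Such a separation, with phagocytic libraries above, was seen in 0.524% of all tested genes in Apoe-/- and in 1.51% in wild type, and Abca1 was the only one of the 9 genes with it. In bulk samples, fewer cells that express a gene and less RNA of it per cell cannot be told apart.

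Abca1 rose in phagocytic cells of Apoe-/- by a log2 fold change of 2.00 ± 0.38 (SE; edgeR quasi-likelihood test, Benjamini-Hochberg adjusted p = 0.0125), and by 1.92 ± 0.28 averaged over genotypes (edgeR, adjusted p = 0.000203). In wild type the value was 1.85 ± 0.42 with an adjusted p of 0.0568 by edgeR. There, 6 of 14 alternative analyses passed the threshold, including that with the library number as a replicate block. They also include the fit with Y-linked reads as a covariate, which was chosen after the data were seen. Of 10 analyses that each left out 1 library, 0 passed, with adjusted p from 0.0545 to 0.199 by edgeR. Between the genotypes, this effect differed by 0.15 ± 0.55, with a 95% interval from -0.94 to 1.23 (edgeR, adjusted p = 1.00). In Apoe-/- the call was lost without phagocytic library 5 (log2 fold change 1.77; edgeR, adjusted p = 0.0549), and over the 15 alternatives its adjusted p ran from 5.93e-08 to 0.573. In TPM, the phagocytic and non-phagocytic libraries of Apoe-/- overlapped, with 5 of 6 phagocytic libraries above all non-phagocytic ones.

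Abcg1 encodes the transporter that passes cholesterol to mature high-density particles, and it lies at chr17:31057675-31117988 on the plus strand (mm10). It had a lowest, median and highest value of 69.6, 195 and 304 CPM in Apoe-/- phagocytic cells, against 22.7, 51.8 and 76.2 CPM in Apoe-/- non-phagocytic cells. Wild-type phagocytic cells had 67.2, 49.9, 38.2, 110 and 65.7 CPM, and wild-type non-phagocytic cells 30.3, 19.4, 24.2, 87.8 and 31.2 CPM. The sorts overlapped in both genotypes, in Apoe-/- through 1 phagocytic library and in wild type through non-phagocytic library 4. Pools of the same number had the higher value in phagocytic cells in 6 of 6 Apoe-/- and 5 of 5 wild-type pools. The share of all genes with such counts, here and below, was not worked out.

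Abcg1 rose in phagocytic cells of Apoe-/- by a log2 fold change of 1.88 ± 0.41 (edgeR, adjusted p = 0.0272) and by 1.33 ± 0.30 averaged over genotypes (edgeR, adjusted p = 0.0141). In wild type it was 0.79 ± 0.44 (edgeR, adjusted p = 0.732), and 1.34 without non-phagocytic library 4 (edgeR, adjusted p = 0.24). With the library number as a replicate block it was 0.90 and was called (edgeR, adjusted p = 0.0215). The difference of 1.10 ± 0.60 between the genotypes had a 95% interval from -0.07 to 2.26 and an adjusted p of 1.00 by edgeR, and it was 0.54 without wild-type non-phagocytic library 4. That library also held 3273 CPM summed over 8 monocyte markers, 699 CPM over neutrophil markers and 5976 CPM over rod markers. The other 4 of its group held 647 to 1538, 179 to 311 and 1220 to 2239 CPM. Wild-type phagocytic library 4 was the highest of its group in Abcg1, monocyte markers (3368 CPM) and neutrophil markers (813 CPM). The part of these markers in the values was not tested. Over 14 alternatives besides leaving out 1 library, including that without wild-type pool 4, the wild-type value ran from 0.31 to 1.08. The genotype difference ran from 0.80 to 1.28 over 14 such alternatives. The call in Apoe-/- was the less stable of the pair, since 7 of 12 analyses that each left out 1 library lost it, with adjusted p up to 0.108 by edgeR; these were without phagocytic libraries 4, 5 and 6 and without non-phagocytic libraries 1, 2, 3 and 6. With counts scaled by transcript length, Abcg1 stood at 1.59 in Apoe-/- (edgeR, adjusted p = 0.13) and at 0.95 averaged over genotypes (edgeR, adjusted p = 0.133).

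The transcript make-up of Abcg1 differed between the sorts in its group means, with no test made, and it enters the length-scaled values. Its full-length coding transcript made up 78.4% of the gene's TPM in Apoe-/- phagocytic cells and 61.5% in Apoe-/- non-phagocytic cells, and 78.3% in wild-type phagocytic cells and 52.2% in wild-type non-phagocytic cells (group means). A retained-intron transcript made up 11.6% in Apoe-/- phagocytic cells and 28.3% in Apoe-/- non-phagocytic cells, and 10.1% in wild-type phagocytic cells and 27.0% in wild-type non-phagocytic cells. For the retained-intron transcript the libraries ran from 3.07% to 17.7% in Apoe-/- phagocytic and from 14.1% to 41.2% in Apoe-/- non-phagocytic cells, and the transcript rests on 128 estimated reads over all libraries. For Abca1, the full-length coding transcript held 5727 of 5730 reads.

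**Figure D3:**
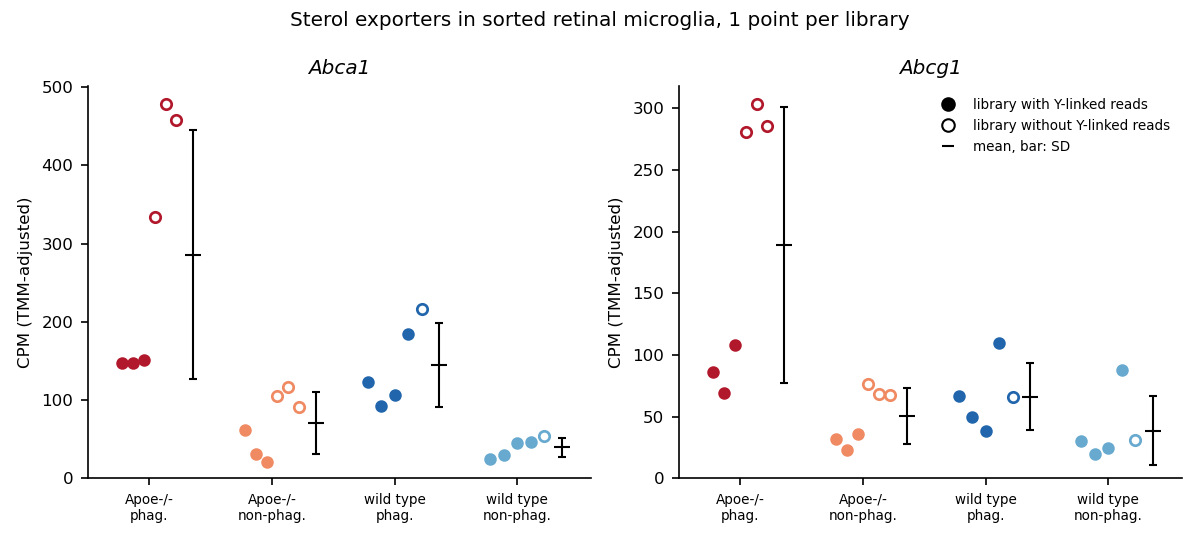
CPM of Abca1 (left) and Abcg1 (right) in each library of the 4 groups, with open circles for the 8 libraries without Y-linked reads and bars for mean and SD. Abca1 in phagocytic libraries stands above all non-phagocytic libraries of its genotype, and the 3 open circles in Apoe-/- phagocytic cells stand at 333 to 478 CPM, above the 3 filled ones at 147 to 151 CPM.

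The Apoe-/- libraries fell into separate ranges for both exporters, along with the Y-linked reads. In Apoe-/- phagocytic cells, Abca1 had 333, 478 and 458 CPM in the 3 pools without Y-linked reads and 147, 147 and 151 CPM in the 3 pools with them. In Apoe-/- non-phagocytic cells it had 105, 116 and 91.3 CPM in pools without such reads and 61.5, 31.1 and 20.7 CPM in pools with them. Abcg1 showed the same separation, with 281, 304 and 286 CPM against 85.9, 69.6 and 108 CPM in phagocytic cells, and 76.2, 68.6 and 67.5 CPM against 32.1, 22.7 and 36.1 CPM in non-phagocytic cells. Of the 9 tested genes these 2 had all pools without Y-linked reads above all pools with them in both sorts, as did 0.789% of all tested genes. The split was noticed after the data were seen, and no test was made of it.

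Wild type had 1 pool without Y-linked reads. It held 217 CPM of Abca1 in phagocytic cells and 53.7 CPM in non-phagocytic cells, in each sort the highest of the 5 libraries. For Abcg1 that pool had 65.7 CPM in phagocytic cells and 31.2 CPM in non-phagocytic cells, within the range of the other 4. Other measures moved with the split as well: Apoe-/- phagocytic libraries without Y-linked reads held 1131045 to 1355217 reads, against 1642213 to 3643499 in those with them, and 753 to 1130 CPM of border macrophage markers, against 464 to 790 CPM. Their summed microglia markers were at 5283 to 8858 CPM, against 10040 to 16170 CPM. In Apoe-/- non-phagocytic cells depth ran the other way, with 1945130 to 3129976 reads in libraries without Y-linked reads against 1671145 to 2276528 in those with them. There, border macrophage markers were at 277 to 354 CPM against 214 to 320 CPM and microglia markers at 8760 to 12690 CPM against 7650 to 18850 CPM, with overlap in each. The part of depth and of these cells in the exporters' split was not tested.

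The effect of the sort on both exporters was also taken within each set of pools. These settings were chosen after the split of both exporters was seen, and they take that split out of the exporters' spread. Their smaller adjusted p are therefore no further support for the effect. For Abca1 in Apoe-/- the effect was 2.01 in the 3 pools without Y-linked reads (edgeR, adjusted p = 0.000292). It was 1.96 in the 3 pools with them (edgeR, adjusted p = 0.573), where 0 of 12525 genes were called by edgeR and 657 had an unadjusted p under 0.05. With the presence of Y-linked reads as a covariate it was 1.99 in Apoe-/- (edgeR, adjusted p = 0.000165) and 1.83 in wild type (edgeR, adjusted p = 0.00108). Without the covariate the wild-type adjusted p was 0.0568 by edgeR. For Abcg1 in Apoe-/- the value was 2.02 without such reads (edgeR, adjusted p = 0.000188), 1.52 with them (edgeR, adjusted p = 0.869) and 1.82 with the covariate (edgeR, adjusted p = 0.0089).

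**Figure D4:**
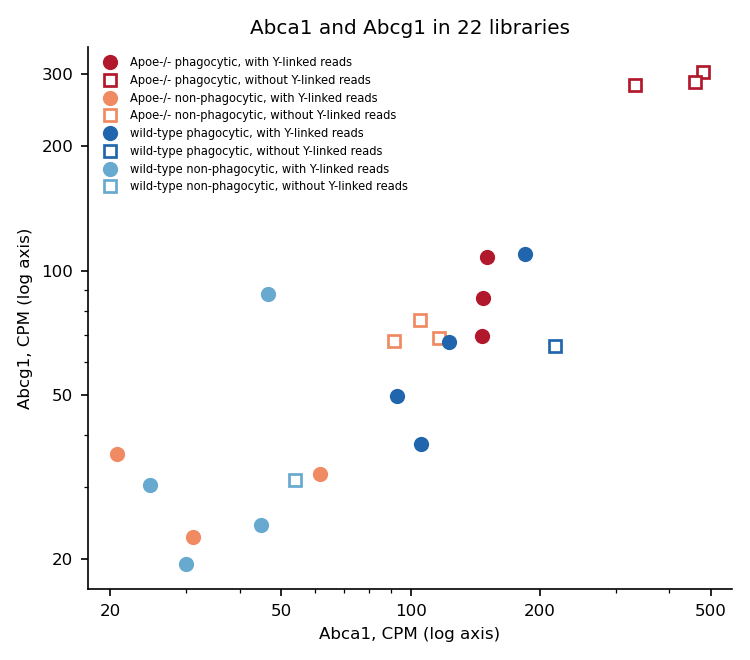
Abcg1 against Abca1 in CPM (log axes) for the 22 libraries, coloured by group, with open squares for libraries without Y-linked reads. The 3 Apoe-/- phagocytic libraries without Y-linked reads stand apart at the upper right, at 333 to 478 CPM of Abca1 and 281 to 304 CPM of Abcg1.

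Between the genotypes, 0 of the 9 genes passed the test in either sort, against 0.0322% of all genes called in phagocytic and 0.0161% in non-phagocytic cells. DESeq2 also called 0 of the 9 in both sorts, against 19 of 12415 genes in phagocytic and 2 in non-phagocytic cells. In each sort 2 of the 9 had an unadjusted p under 0.05, against 822 and 472 of all genes. In phagocytic cells, Abcg1 averaged 189 ± 112 CPM in Apoe-/- (SD, n = 6) and 66.2 ± 27.2 CPM in wild type (SD, n = 5), a log2 fold change of 1.51 ± 0.43 (edgeR, adjusted p = 0.393). Abca1 averaged 286 ± 159 CPM in Apoe-/- phagocytic cells and 145 ± 53.5 CPM in wild-type phagocytic cells, a log2 fold change of 0.98 ± 0.39 (edgeR, adjusted p = 0.675). The ranges overlapped for both genes.

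These genotype values moved with the Y-linked split, which is uneven, at 3 of 6 Apoe-/- and 1 of 5 wild-type pools. With the covariate, the log2 fold change in phagocytic cells was 0.98 for Abcg1 (edgeR, adjusted p = 0.751) and 0.46 for Abca1 (edgeR, adjusted p = 0.923). Among the pools with Y-linked reads alone, it was 0.43 for Abcg1 and 0.25 for Abca1 (edgeR, adjusted p = 0.994 for each). Among phagocytic pools without them, Abcg1 was at 281 to 304 CPM in Apoe-/- and at 65.7 CPM in the 1 wild-type pool. Abca1 was at 333 to 478 CPM and at 217 CPM there. With 1 wild-type pool, that comparison was not tested. In non-phagocytic cells, Abca1 was at 0.83 ± 0.40 over all pools (edgeR, adjusted p = 0.999) and at 0.05 among pools with Y-linked reads. A genotype difference in the sort's effect was called for 0 of the 9 genes and for 0% of all genes by edgeR. For it, 0 of the 9 had an unadjusted p under 0.05, against 301 of 12415 genes. DESeq2 called 0 of the 9, against 2 of all genes.

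Mylip encodes IDOL, the ubiquitin ligase that marks the LDL receptor for breakdown and so limits cholesterol uptake (chr13:45389742-45412022, plus strand, mm10). It had a lowest, median and highest value of 50.7, 90.6 and 131 CPM in Apoe-/- phagocytic cells and of 36.1, 75.0 and 125 CPM in Apoe-/- non-phagocytic cells. Wild-type phagocytic cells had 70.3, 57.9, 63.5, 56.9 and 59.5 CPM, and wild-type non-phagocytic cells 128, 111, 105, 42.3 and 73.7 CPM. Unlike the exporters, it was the lower in phagocytic cells in 4 of 5 wild-type pools, without passing the test: the log2 fold change was -0.58 ± 0.29 in wild type (edgeR, adjusted p = 0.672) and 0.12 ± 0.27 in Apoe-/- (edgeR, adjusted p = 0.952). In Apoe-/- it was the higher in phagocytic cells in 3 of 6 pools.

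Among the lipid-synthesis targets, Srebf1 encodes SREBP1, which drives fatty acid synthesis genes (chr11:60199089-60222581, minus strand, mm10). It averaged 65.4 ± 8.16 CPM in Apoe-/- phagocytic and 51.1 ± 16.0 CPM in Apoe-/- non-phagocytic cells, and 58.1 ± 13.2 CPM in wild-type phagocytic and 48.4 ± 21.4 CPM in the non-phagocytic cells of wild type. All groups overlapped, with 0.31 ± 0.18 averaged over genotypes (edgeR, adjusted p = 0.451). That direction depended on the scale, being -0.15 with counts scaled by transcript length. Srebf1 overlaps Rai1 on the other strand, and without a stated strand setting their reads may be mixed.

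The stearoyl-CoA desaturases make monounsaturated fatty acids from saturated ones. Scd2 (chr19:44293674-44306864, plus strand, mm10) had a lowest, median and highest value of 26.1, 41.9 and 61.4 CPM in Apoe-/- phagocytic cells and of 17.0, 24.7 and 43.7 CPM in Apoe-/- non-phagocytic cells. Wild-type phagocytic cells had 60.5, 47.0, 43.3, 36.4 and 38.2 CPM, and wild-type non-phagocytic cells 47.9, 39.3, 50.7, 36.3 and 33.8 CPM. Groups overlapped, and 6 of 6 Apoe-/- and 4 of 5 wild-type pools had the higher value in phagocytic cells. The log2 fold change was 0.63 ± 0.24 in Apoe-/- (edgeR, adjusted p = 0.33) and 0.12 ± 0.25 in wild type (edgeR, adjusted p = 0.971). In non-phagocytic cells the difference between Apoe-/- and wild type was -0.59 ± 0.24 (edgeR, adjusted p = 0.999). Scd1 (chr19:44394455-44407879, minus strand, mm10), the main desaturase of liver and fat, had 44 reads over all libraries, reads in 13 of 22 and at most 4.34 CPM. The paralogs are similar in sequence and may share reads.

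Lpcat3 encodes the enzyme that puts polyunsaturated acyl chains into membrane phospholipids (chr6:124663027-124704418, plus strand, mm10). It averaged 103 ± 38.7 CPM in Apoe-/- phagocytic and 72.5 ± 21.4 CPM in Apoe-/- non-phagocytic cells, and 107 ± 27.7 CPM in wild-type phagocytic and 83.1 ± 35.1 CPM in the non-phagocytic cells of wild type. It was the higher in phagocytic cells in 6 of 6 Apoe-/- and 5 of 5 wild-type pools, but the groups overlapped, with 0.43 ± 0.20 averaged over genotypes (edgeR, adjusted p = 0.326). With the library number as a replicate block the average was 0.45 (edgeR, adjusted p = 0.0265). With counts scaled by transcript length the wild-type value was -0.11 in place of 0.36. Lpcat3 overlaps Emg1 on the other strand.

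Pltp encodes the phospholipid transfer protein, which remodels lipoproteins (chr2:164839518-164857711, minus strand, mm10). It had a lowest, median and highest value of 13.4, 31.2 and 40.5 CPM in Apoe-/- phagocytic cells and of 7.05, 15.8 and 23.3 CPM in Apoe-/- non-phagocytic cells. Wild-type phagocytic cells had 10.5, 78.8, 11.6, 22.2 and 23.1 CPM, and wild-type non-phagocytic cells 11.3, 11.6, 4.85, 44.5 and 43.3 CPM. Single wild-type libraries stood far above the rest, and the log2 fold change was 0.92 ± 0.50 in Apoe-/- (edgeR, adjusted p = 0.569) and 0.35 ± 0.53 in wild type (edgeR, adjusted p = 0.951). Phagocytic cells had the higher value in 5 of 6 Apoe-/- and 2 of 5 wild-type pools. Pltp overlaps Ctsa, a lysosomal gene with 25755 reads, on the other strand, so part of its reads may belong to Ctsa.

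**Figure D5:**
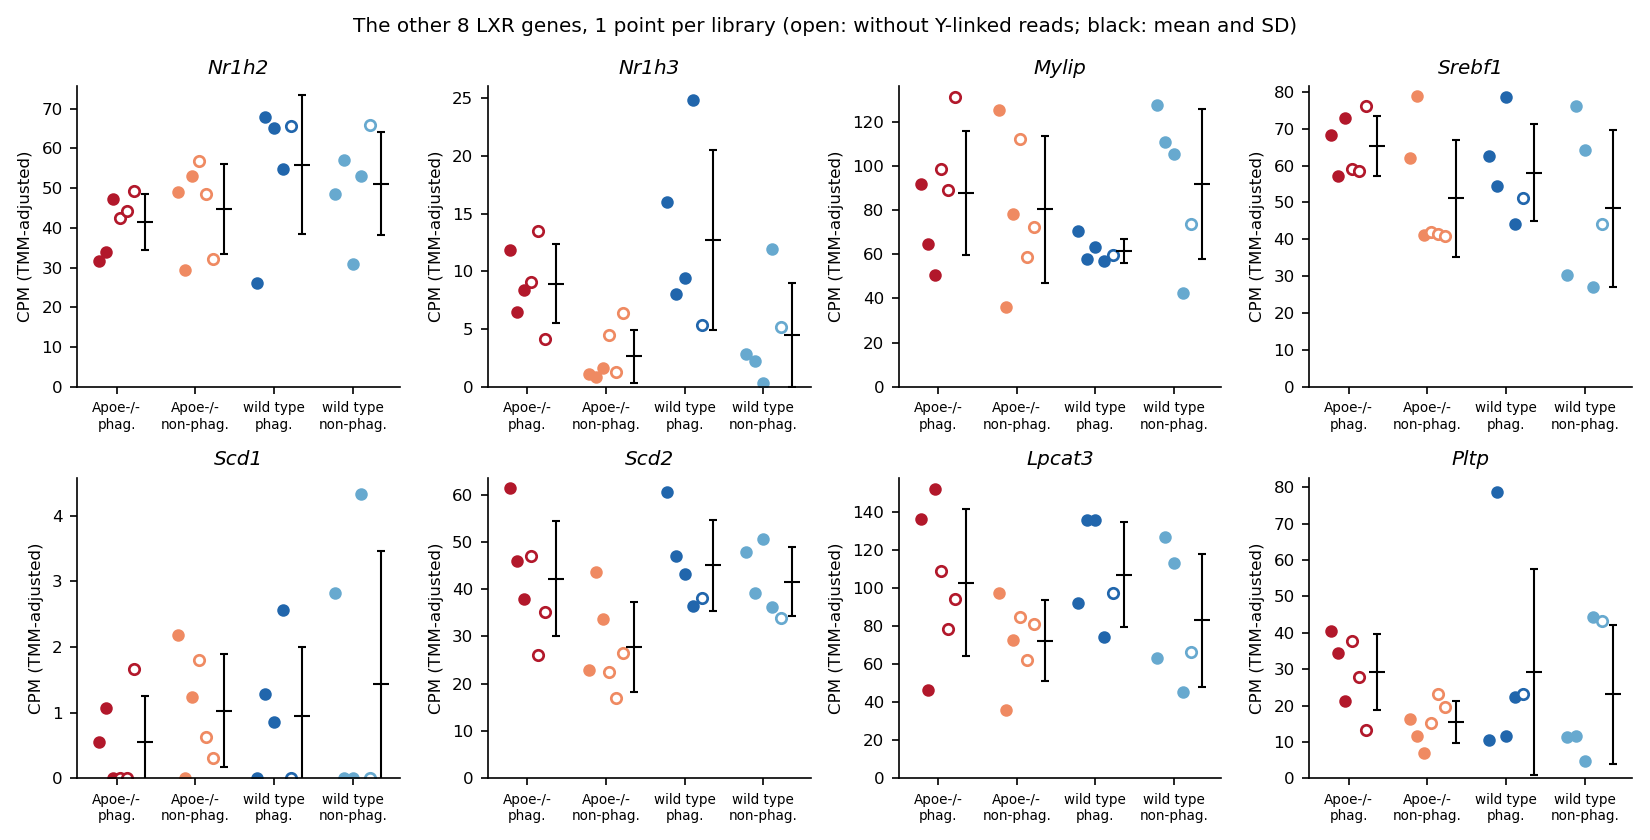
CPM of the other 8 LXR genes in each library of the 4 groups (open circles: libraries without Y-linked reads, black: mean and SD; each panel has its own axis). The groups overlap in every panel, Nr1h3 lies mostly higher in phagocytic cells, and Scd1 stays at or under 4.34 CPM.

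RefSeq promoter windows (build GRCm38.p6, 250 bases before to 50 after a start) were at hand for 7 of the 10 genes, 10 windows in all. They were searched on both strands for the LXR element, which is the half-site AGGTCA repeated in the same direction after any 4 letters, with up to 3 mismatches in its 12 fixed letters, which 21.9% of all 32851 windows hold. A match was present in 2 of the 10 windows, 1 of Abca1 and 1 of Srebf1. They are shown because Abca1 rose with the sort and Srebf1, with nearly the same letters, did not pass the test; capitals mark the match, which reads 5′ to 3′ as the element on the opposite strand.
Abca1, chr4:53159846-53160145, minus strand: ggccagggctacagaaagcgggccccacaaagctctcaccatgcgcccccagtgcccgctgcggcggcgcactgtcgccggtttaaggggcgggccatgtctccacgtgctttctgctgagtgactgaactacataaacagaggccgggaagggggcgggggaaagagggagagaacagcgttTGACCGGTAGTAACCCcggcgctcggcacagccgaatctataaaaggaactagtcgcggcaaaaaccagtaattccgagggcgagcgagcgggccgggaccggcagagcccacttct
Srebf1, chr11:60210422-60210721, minus strand: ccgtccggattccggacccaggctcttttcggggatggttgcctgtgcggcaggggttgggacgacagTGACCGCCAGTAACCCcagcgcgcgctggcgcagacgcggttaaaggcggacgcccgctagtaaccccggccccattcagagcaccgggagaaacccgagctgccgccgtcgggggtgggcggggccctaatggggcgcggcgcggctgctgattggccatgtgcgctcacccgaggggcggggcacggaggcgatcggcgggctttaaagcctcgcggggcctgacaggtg

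The match lies at -67 to -52 from the start of Abca1 and at -182 to -167 from that start of Srebf1, and the 2 matches share 14 of 16 letters. An E-box, CACGTG, is present in 7.15% of all windows and lies at -147 in the Abca1 window. The Srebf1 transcripts that begin within 100 bases of the window's start site held 46.7 of the gene's 2620 reads, or 1.78%, whereas a coding transcript from another start held 71.9%. A match is a description of letters only, and binding was not measured.

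Across the 22 libraries, log2 CPM of Abca1 ran most alike (Pearson's r, over all 12415 genes) with Aoah, a lipase that inactivates bacterial endotoxin (r = 0.915), Clec4a1, a lectin receptor (0.909), C3ar1, a complement receptor (0.908), Cybb, a subunit of the phagocyte oxidase (0.908), and Cp, or ceruloplasmin (0.899). Abcg1 ranked 10 on that list (r = 0.88). For Abcg1 the closest were Clec4a1 (0.892), the interferon-response factor Irf7 (0.889), Ms4a6c (0.883), Abca1 (0.88) and the nucleic acid sensor Zbp1 (0.879). With the group means taken out, Abca1 and Abcg1 still ran together at r = 0.758, whereas Scd2 ran opposite to them at -0.721 and -0.566, and Srebf1 opposite to Abcg1 at -0.601. These values describe libraries that share groups and the pool split, and carry no test.

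The wider pathway was described by 5 lists. Of 9 LXR partners and coregulators, 0 were called by edgeR for the sort in Apoe-/-, in wild type or averaged over both. The shares of all genes were 0.467%, 0.209% and 2.36%. For the average, 3 had an unadjusted p under 0.05, against 1799 of 12415 genes, and DESeq2 called 0, against 513. The partner Rxra averaged 29.5 ± 17.3 CPM in Apoe-/- phagocytic and 15.1 ± 4.77 CPM in Apoe-/- non-phagocytic cells, with 0.68 ± 0.29 averaged over genotypes (edgeR, adjusted p = 0.246). Rxrg, another partner, was scarce, at a log2 fold change of 1.79 ± 0.74 (edgeR, adjusted p = 0.239).

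Of 19 other LXR targets, 13 were tested and 1, Mlxipl, was called lower in phagocytic cells averaged over genotypes, against 2.36% of all genes. DESeq2 called 2 in that comparison, against 513 of 12415 genes. Mlxipl encodes ChREBP, a glucose-responsive activator of lipid synthesis. It averaged 64.3 ± 26.4 CPM in Apoe-/- phagocytic and 121 ± 26.2 CPM in Apoe-/- non-phagocytic cells, and 62.2 ± 28.6 CPM in wild-type phagocytic and 120 ± 51.3 CPM in the non-phagocytic cells of wild type, and it fell by 0.93 ± 0.24 on the log2 scale (edgeR, adjusted p = 0.0336). The targeted gene Apoe stands on this list, as does its neighbour Apoc2, an activator of lipoprotein lipase. These 2 were called lower in Apoe-/- phagocytic cells than in wild-type phagocytic cells, against 0.0322% of all genes. The call of Apoe follows from the genotype itself and says nothing about the list. Apoc2 averaged 4.34 ± 4.81 CPM in Apoe-/- phagocytic and 82.1 ± 45.3 CPM in wild-type phagocytic cells, and fell by 4.39 ± 0.77 on the log2 scale (edgeR, adjusted p = 0.0152).

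Of 19 sterol-handling genes, 16 were tested, and 3 were called higher in phagocytic cells averaged over genotypes, against 2.36% of all genes called. Npc2, which carries cholesterol out of the lysosome, averaged 696 ± 164 CPM in Apoe-/- phagocytic and 408 ± 61.6 CPM in Apoe-/- non-phagocytic cells, and 674 ± 95.6 CPM in wild-type phagocytic and 413 ± 38.9 CPM in the non-phagocytic cells of wild type. It rose by 0.74 ± 0.13 averaged over genotypes (edgeR, adjusted p = 0.00112) and was also called in Apoe-/-, at 0.77 ± 0.17 (edgeR, adjusted p = 0.0333). Nceh1, a cholesteryl ester hydrolase, rose by 0.83 ± 0.17 (edgeR, adjusted p = 0.00605), and Lipa, the lysosomal acid lipase, by 0.65 ± 0.18 (edgeR, adjusted p = 0.0465).

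Of 25 sterol synthesis genes, 24 were tested and 0 were called in any of the 6 comparisons by edgeR or DESeq2. Over these comparisons edgeR called 0% to 2.36% of all genes, and DESeq2 2 to 513 of 12415. At such shares 0 of 24 says little about the list. For the sort averaged over genotypes the median log2 fold change was 0.08 and 15 of 24 were positive, against 47.7% of all genes. In it, 1 had an unadjusted p under 0.05, against 1799 of 12415 genes. The 2 with the largest change in that average were Mvk, the mevalonate kinase, at 0.82 ± 0.33 (edgeR, adjusted p = 0.219), and Nsdhl, an enzyme of late sterol synthesis, at 0.58 ± 0.38 (edgeR, adjusted p = 0.547). In phagocytic cells, 4 of the 24 were higher in Apoe-/- than in wild type, against 49.5% of all genes. Their median was -0.28, against -0.0040 over all tested genes. Fatty acid genes lay the same way there, with 1 of 12 higher and a median of -0.18. Unadjusted p by edgeR was under 0.05 for 1 of the 24 and 0 of the 12, against 822 of 12415 genes. The uneven pool split was not taken into account. Of 15 genes of fatty acid synthesis and desaturation, 12 were tested and 0 were called in any comparison by edgeR or DESeq2, against the same shares of all genes. For the averaged sort their median was -0.04, and 2 had an unadjusted p under 0.05, against 1799 of 12415 genes. The 2 with the largest change, Acsl3, an acyl-CoA synthetase, at 0.93 ± 0.61 (edgeR, adjusted p = 0.542) and the malic enzyme Me1 at -0.77 ± 0.64 (edgeR, adjusted p = 0.665), were scarce, with group means of 2.24 to 4.56 CPM and of 2.99 to 7.11 CPM.

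Markers of border macrophages moved with the sort in the same direction as the exporters. Of their 12 markers 10 were tested, and all 10 were positive in both genotypes, with 4 called in Apoe-/-, 3 in wild type and 8 averaged over genotypes, against 0.467%, 0.209% and 2.36% of all genes. Stab1, the most abundant of them, averaged 523 CPM in Apoe-/- phagocytic and 230 CPM in Apoe-/- non-phagocytic cells. The microglia markers had a median of -0.29 averaged over genotypes, with 0 of 10 called by edgeR or DESeq2 and 2 with an unadjusted p under 0.05. In that average, 1799 of 12415 genes had an unadjusted p under 0.05, and DESeq2 called 513. Markers of dendritic cells had negative values in 6 of 6 tested, with a median of -1.20 averaged over genotypes, where 0 were called by edgeR, 1 by DESeq2, and 5 had an unadjusted p under 0.05. Summed over 8 such markers, levels ran from 40.5 to 111 CPM in Apoe-/- phagocytic and from 75.1 to 158 CPM in Apoe-/- non-phagocytic cells, and from 24.4 to 69.7 CPM in wild-type phagocytic and from 39.2 to 365 CPM in wild-type non-phagocytic cells. The gate asked for Fcrls, a microglial surface marker, and how completely it separated these cell types was not measured here. The part of border macrophages and dendritic cells in the exporters' values was not tested.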

How the data were processed

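Per the file headers, the authors deposited estimated counts and TPM for the transcripts of each library, and for the series a gene table of FPKM values, which keeps genes above 5 FPKM per its header. Salmon 1.4.0, R 4.0.3, DESeq2 1.30.1 and build mm10 are named without roles per the submitters' processing notes; the strand setting is not given in the sources used here. Estimated counts were summed per gene (GENCODE M21), rounded, and tested with edgeR 4.0.16 in R 4.3.3 (quasi-likelihood, TMM, filterByExpr, 1 fit of all 22 libraries and 4 groups). The Benjamini-Hochberg method adjusted p over 12415 genes, with a threshold of 0.05. Alternatives used DESeq2 1.42.0, limma 3.58.1 on log2(FPKM + 1) or log2(FPKM + 0.1), other filters and scalings, and left-out libraries. TPM of a gene is the sum of its transcripts' deposited TPM. Correlations used log2 CPM with a prior count of 2.

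The members and lists were chosen with earlier results of these data known. Named are all 10 genes in each comparison, list genes called in any comparison or with the 2 largest changes averaged over genotypes, the 5 genes most like each exporter, and Apoe. Stab1 and Cd209f were named after their values were seen. The figures were drawn with matplotlib 3.10.9.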

Additional observations from a re-analysis of the deposited data

Results flagged for a closer look

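Of 40 groups of values (10 genes in 4 groups), 2 held a library that stood apart from the rest of its group, and chance alone marks about 1 in 20 groups. Abcg1 in wild-type non-phagocytic library 4 was at 87.8 CPM, above the other 4 libraries of that group at 19.4 to 31.2 CPM, and its summed monocyte, neutrophil and rod markers also stood above theirs. Pltp in wild-type phagocytic library 2 was at 78.8 CPM, above the other 4 libraries at 10.5 to 23.1 CPM.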

How the results depend on the processing

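Abca1 averaged over genotypes was called under all 14 alternatives and in all 22 analyses without 1 library. Counts of genes called for the sort in Apoe-/- (58) were 145 with DESeq2, 26 and 8 with limma on log2(FPKM + 1) and log2(FPKM + 0.1), 137 with no filter and 16 without Apoe-/- non-phagocytic libraries 2 and 5, which held most satellite reads. For wild type (26) they were 100 with DESeq2, 8 with limma on log2(FPKM + 0.1), 122 with no filter and 59 with the satellite share as covariate. For the average (293) they were 513 with DESeq2 and 82 and 78 with limma. Between genotypes they were 19 and 96 (DESeq2, no filter) and 2 (only the groups compared) in phagocytic cells (4), 16 and 1 (no filter, limma with 0.1) in non-phagocytic cells (2), and 2 and 17 (DESeq2, no filter) for the difference in the sort's effect (0). Without 1 library each, counts ran from 18 to 89 in Apoe-/-, from 13 to 64 in wild type, from 191 to 355 for the average, and from 3 to 23 between genotypes in phagocytic cells. Settings with Y-linked reads were chosen after seeing the data: the covariate gave 89 and 49 calls in Apoe-/- and wild type, pools with such reads gave 0, 6, 27 (average) and 2 (genotype, phagocytic), and pools without them 123 in Apoe-/-.

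Of the 9 genes, the 2 called in Apoe-/- became 1 with length-scaled counts and 0 with limma, without libraries 2 and 5 or in pools with Y-linked reads, and 0 to 2 without 1 library. In wild type, where 0 were called, 1 (Abca1) was called with DESeq2, no filter, only the groups compared, the satellite share or the Y covariate. Averaged, 1 of the 2 was left with length-scaled counts, limma or pools with Y-linked reads, and 2 to 3 were called without 1 library. With no filter, Abcg1 was called between genotypes in phagocytic cells at 1.46 (edgeR, adjusted p = 0.00174), 1 of 9 in place of 0. The cause was not tested.

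The labels do not say whether libraries of both sorts with the same number share animals. Their correlations of deviations ran from 0.0626 to 0.214 in Apoe-/- and from 0.0402 to 0.423 in wild type, over 0.1 in 8 of 11 pairs, not every library correlated best with its own number, and the presence of Y-linked reads matched in 11 of 11, a hint from the data that they do. With the number within each genotype as a replicate block, 255 genes were called in Apoe-/-, 135 in wild type and 644 averaged. Of the 9 genes, 2 were called in wild type (Abca1 at 1.83, edgeR, adjusted p = 0.00023, and Abcg1 at 0.90, edgeR, adjusted p = 0.0215) and 4 averaged (with Nr1h3 at 1.83 and Lpcat3 at 0.45). Between genotypes the block joined equal numbers from different animals, a pairing the labels give no basis for. It gave 7 calls in phagocytic cells.

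Among 31 estimates more than 1 SE from 0, 4 changed sign in some alternative, all uncalled. Srebf1 was at -0.055 in Apoe-/- and -0.150 averaged with length-scaled counts, and at -0.0179 and -0.117 (FPKM + 0.1) or -0.0156 and -0.113 (FPKM + 1) with limma. Lpcat3 in wild type was at -0.107, -0.0128 and -0.0166 in the same analyses. Nr1h3 between genotypes in non-phagocytic cells was at 0.0774 without wild-type pool 4 and ran from -1.15 to 0.0847 without 1 library each. Of the 23 estimates within 1 SE of 0, 19 changed sign in some alternative and none was called; they are given no direction. Depth limits the scarce genes Nr1h3 and Scd1.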
